A study of Mus musculus with 16 samples.

Results

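The Tex genes, named for testis-expressed transcripts, were followed across mouse embryonic stem (ES) cells with and without the Polycomb protein Rybp. They are not a family by descent: the symbol records where a transcript was first found, and the proteins range from meiotic chromosome factors to proteins of the endoplasmic reticulum. Members were all genes whose symbol begins with Tex and a digit and that had a probe set naming no other gene, which gave 35 of the 18193 genes measured. The probe set with the highest mean log2 intensity over the 16 arrays stood for each member. Of the 35 members, 6 passed the threshold at day 12, all of them higher in the cells labelled Rybp KO, and 2 of these 6 had already passed at day 4. A further 8 members that were above the array median on every untreated array did not pass it on either day.

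The cells were ES cells of a 129/B6 hybrid background, clones 10 and 15. KO cells had received 4-hydroxytamoxifen (OHT) at 800 nM over 24 hours, which per the labels depletes Rybp, and control cells of the same clones had received none. RNA was taken at 4 and 12 days, giving KO day 4, control day 4, KO day 12 and control day 12 groups of 4 arrays each, with replicates 1 and 2 of either clone. Culture was in medium with serum and leukaemia inhibitory factor, over feeder layers of irradiated mouse embryonic fibroblasts or over gelatin, and the labels do not say which array came from which. Since no control received OHT, Rybp loss cannot be told apart from effects of the drug or of a recombinase it switches on, and the genotype of the engineered Rybp allele is not given in the sources used here. Whether replicates came from separate cultures is not stated, so the spread behind each p-value is that of these arrays and may be technical.

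Rybp binds the Ring1 proteins of variant Polycomb repressive complex 1 (PRC1), which silences developmental genes by ubiquitinating histone H2A. The variant known as PRC1.6 holds Rybp or its relative Yaf2 together with the DNA-binding pairs Mga-Max and E2f6-Dp1, and is known in mouse ES cells for silencing genes of germ cells and meiosis. Tex genes with known germ cell roles include Tex11, an X-linked gene needed for crossovers in male meiosis, Tex12, part of the central element of the synaptonemal complex that zips homologous chromosomes, Tex14, needed for the bridges that join germ cells, and Tex15, which acts in silencing retrotransposons in male germ cells. Tex19.1, whose paralogue is Tex19.2, restrains retrotransposons in germ cells and is expressed in ES cells and placenta as well, and Tex101 encodes a GPI-anchored glycoprotein of germ cells that sperm need to enter the oviduct. Others work in most cells, among them Tex264, a receptor for the autophagy of endoplasmic reticulum, Tex2, a lipid transfer protein of that organelle, and Tex10, a nuclear protein of ribosome assembly and of the ES cell transcription network.

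Every array held an identical set of values once sorted, with a median intensity of 93.3 and a 25th percentile of 28.3, and no detection calls were used, so a level is read here against those marks. Each set of probes binds with its own strength, so such a position depends on the probes as well as on the RNA. A difference in intensity between members is therefore no measure of a difference in RNA. Of the 2 Rybp probe sets, both annotated to a Rybp pseudogene as well, 1421111_at read 97.4 ± 18.5 in KO cells and 2753 ± 609 in control cells at day 4 and 189 ± 74.6 in KO cells and 3029 ± 334 in control cells at day 12 (SD, n = 4 each), log2 fold changes of -4.81 ± 0.24 and -4.09 ± 0.24. The other, 1428219_at, read 6002 ± 1840.3 in KO cells and 1363 ± 1282 in control cells at day 4 and 4199 ± 997 in KO cells and 959.9 ± 963 in control cells at day 12, and the sources used here do not say which exons either one covers. All 6 ES cell markers lay above the median on every array, with a summed intensity of 46402 to 53703 in KO against 46427 to 54730 in control cells at day 4, and of 37875 to 52048 against 42050 to 57753 at day 12. Bulk RNA cannot tell a transcript made by few cells from one made at a low level by many, nor fewer cells of a type from less RNA per cell.

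The promoters of the members past the threshold are shown because PRC1.6 reaches its targets through DNA-binding subunits. Of the 6 members, 5 had an entry among the RefSeq promoters used (assembly GRCm38.p6), and each run gives the 250 bases before the annotated start, 5′ to 3′ on the gene's strand. They lie at chr9:50561269-50561518 on the minus strand (Tex12), chr7:24672051-24672300 on the minus strand (Tex101), chrX:140813434-140813683 on the minus strand (Tex13b), chr11:121145893-121146142 on the plus strand (Tex19.1) and chr11:121118678-121118927 on the minus strand (Tex19.2). Capitals mark CACGTG, the E-box that Mga-Max binds, and TTCCCGC, the E2F6 site, on either strand, where GCGGGAA is TTCCCGC read from the opposite strand. The letters of the 2 motifs do not overlap.
Tex12: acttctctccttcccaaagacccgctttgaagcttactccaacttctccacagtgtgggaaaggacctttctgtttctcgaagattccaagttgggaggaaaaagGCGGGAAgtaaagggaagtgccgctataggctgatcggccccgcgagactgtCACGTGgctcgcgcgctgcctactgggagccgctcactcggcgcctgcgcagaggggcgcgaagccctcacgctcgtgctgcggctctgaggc
Tex101: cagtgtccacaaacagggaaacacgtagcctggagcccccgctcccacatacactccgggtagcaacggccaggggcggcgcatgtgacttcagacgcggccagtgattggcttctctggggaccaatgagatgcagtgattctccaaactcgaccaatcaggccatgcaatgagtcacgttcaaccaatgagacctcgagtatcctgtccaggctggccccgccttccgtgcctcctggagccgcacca
Tex13b: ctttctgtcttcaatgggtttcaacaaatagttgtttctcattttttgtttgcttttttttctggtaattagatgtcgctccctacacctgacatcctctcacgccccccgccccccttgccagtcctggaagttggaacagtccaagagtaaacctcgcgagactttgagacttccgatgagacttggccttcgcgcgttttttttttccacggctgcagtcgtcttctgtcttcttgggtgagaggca
Tex19.1: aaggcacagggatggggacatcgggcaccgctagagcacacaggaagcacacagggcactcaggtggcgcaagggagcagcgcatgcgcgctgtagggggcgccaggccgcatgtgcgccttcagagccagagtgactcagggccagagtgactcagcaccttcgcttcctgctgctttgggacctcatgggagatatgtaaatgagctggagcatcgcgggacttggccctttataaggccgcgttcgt
Tex19.2: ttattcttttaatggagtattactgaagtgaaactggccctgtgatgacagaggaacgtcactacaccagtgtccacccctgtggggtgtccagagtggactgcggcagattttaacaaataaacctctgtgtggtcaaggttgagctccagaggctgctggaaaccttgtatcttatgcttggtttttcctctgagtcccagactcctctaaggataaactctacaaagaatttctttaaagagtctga

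Tex12 held both motifs, the E2F6 site at positions -145 to -139 and the E-box at -93 to -88 counted from its start, and the other 4 promoters held neither in these windows. Over all 32851 promoters of that length, 6.02% held CACGTG, 3.82% held TTCCCGC and 0.338% (111 promoters) held both. Among the 28 members with a promoter entry, Tex14, Tex30 and Tex9 also held TTCCCGC and Tex36 held CACGTG. A match is only a string of letters, and says nothing here of binding. The 5 promoters differed more in CpG content, with 20 CpG in Tex12, 15 in Tex19.1, 14 in Tex101, 11 in Tex13b and 2 in Tex19.2, where all promoters had a median of 6 and an upper quartile of 16. Some members have several entries, and all are counted here. The 8 entries of the 7 members high in untreated cells but not past the threshold had 12 to 34 (median 19), and the 20 entries of the 16 members neither high nor past the threshold had 0 to 12 (median 3).

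Differences were tested with limma on log2 intensities over all 16 arrays, with Benjamini-Hochberg adjustment over 18195 entries, and a member was called higher or lower, and is said to have passed, at an adjusted p under 0.05. Errors of log2 fold changes are standard errors. At day 4, 2 members were higher (Tex11 and Tex101) and 0 lower, while of all entries 0.566% were higher and 0.0605% lower. At day 12, 6 members were higher (Tex11, Tex12, Tex101, Tex13b, Tex19.1 and Tex19.2) and 0 lower, against 2.19% of all entries higher and 0.901% lower. An unadjusted p under 0.05 was reached by 9 members at day 4, of which Tex14 and Tex46 were lower, beside 8.54% of all entries. At day 12 it was reached by 11 members, of which Tex14 and Tex9 were lower, beside 14.8%. The median log2 fold change over the 35 members was 0.08 at day 4 and 0.28 at day 12, and over all entries 0.01 on both days. KO and control arrays of the same clone, day and replicate number deviated together, and with these 8 pairs as a block limma gave 2 members higher (Tex11 and Tex19.1) and 0 lower at day 4, where 0.736% and 0.242% of all entries were higher and lower. At day 12 the block gave 5 higher and 1 lower (Tex14), where 4.68% and 3.45% were. With the replicate number within each day as a term beside group and clone, 3 members were higher and 1 lower at day 4, beside 1.49% and 0.555% of all entries. At day 12 that term gave 8 higher (the 6 with Tex15 and Tex16) and 2 lower, beside 6.80% and 5.05%.

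**Figure D1:**
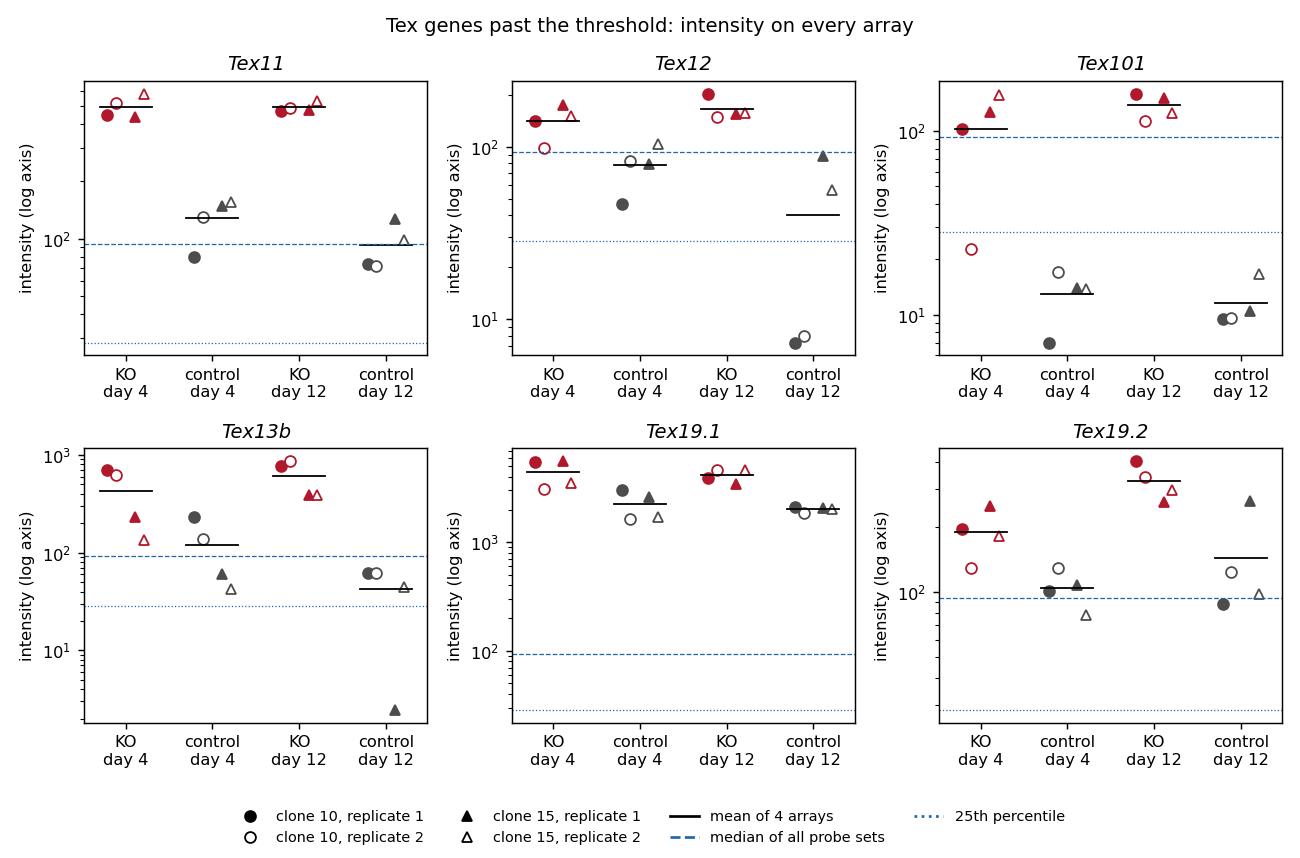
Intensity on each of the 16 arrays (log axis, arbitrary units) of the 6 members past the threshold, by group, with clone shown by marker shape and replicate by fill. Black lines are means of 4 arrays, and the dashed and dotted lines mark the median (93.3) and 25th percentile (28.3) of all probe sets. The KO arrays of Tex11 lie between 435 and 580.2, above all of its control arrays.

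Tex11, the crossover gene, rose on both days, and Tex12, of the synaptonemal complex, at day 12. Values on single arrays are given in the order clone 10 replicate 1, clone 10 replicate 2, clone 15 replicate 1, clone 15 replicate 2. Tex11 (probe set 1419729_at) read 446, 514, 435 and 580.2 on the KO arrays of day 4, against 79.9, 130.4, 149 and 155 on the control arrays. Tex11 then read 469.5, 488, 478 and 531 on the KO arrays of day 12, against 73.8, 71.5, 127 and 98.7 on the control arrays. Every KO array was above every control array on both days, and the 8 KO arrays differed little between clones and days. Tex11 averaged 494 ± 67.5 in KO cells and 129 ± 34.2 in control cells at day 4 (SD, n = 4 each), giving a log2 difference of 1.98 ± 0.19 (limma adjusted p = 1.71e-04, higher in 4 of 4 pairs). Its mean at day 12 was 491 ± 27.1 in KO cells and 92.7 ± 26.0 in control cells, giving a log2 difference of 2.44 ± 0.19 (limma adjusted p = 1.90e-05, higher in 4 of 4 pairs). Within clone 10 and clone 15 the log2 fold change was 2.23 and 1.72 at day 4, and 2.72 and 2.17 at day 12. The call was kept in each of the 16 fits that left out 1 array.

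Tex12 (1421183_at) read 140.2, 98.6, 174 and 151 on the KO arrays of day 4, against 46.3, 82.2, 79.7 and 104 on the control arrays. Tex12 then read 203, 149.6, 155 and 157 on the KO arrays of day 12, against 7.29, 7.99, 88.9 and 55.8 on the control arrays. The groups overlapped at day 4, and at day 12 every KO array was above every control array, with the controls of clone 10 far below those of clone 15. The log2 fold change was 0.88 ± 0.56 at day 4 (limma adjusted p = 0.764) and 2.83 ± 0.56 at day 12 (limma adjusted p = 0.0164, higher in 4 of 4 pairs). The clone 10 controls of day 12 lay under the 25th percentile, and with lower values set to that percentile, 28.3, the fold at day 12 was 3.70 in place of 7.12. At day 12 the log2 fold change was 4.52 in clone 10 and 1.15 in clone 15, and this difference between clones had an unadjusted p of 3.97e-05 and a limma adjusted p of 0.241. The day 12 call was lost without KO day 12 clone 10 replicate 1 (limma adjusted p = 0.0597), without KO day 12 clone 10 replicate 2 (0.0515) or without control day 12 clone 10 replicate 2 (0.0505).

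Tex101, the sperm glycoprotein gene, lay under the 25th percentile of all probe sets on every control array and above the median on most KO arrays. Its probe set, 1449103_at, read 102, 22.7, 127 and 158 on the KO arrays of day 4, against 7.01, 17.0, 13.9 and 13.7 on the control arrays. Tex101 then read 160.2, 114, 151 and 126 on the KO arrays of day 12, against 9.49, 9.55, 10.5 and 16.7 on the control arrays. All 8 control arrays were under the 25th percentile and 7 of 8 KO arrays were above the median, the exception being clone 10 replicate 2 at day 4. Tex101 averaged 102 ± 57.7 in KO cells and 12.9 ± 4.21 in control cells at day 4, giving a log2 difference of 2.75 ± 0.45 (limma adjusted p = 0.0132, higher in 4 of 4 pairs), which with the pairs as a block had an adjusted p of 0.0780. Its mean at day 12 was 138 ± 21.6 in KO cells and 11.6 ± 3.47 in control cells, giving a log2 difference of 3.60 ± 0.45 (limma adjusted p = 8.91e-04, higher in 4 of 4 pairs). Against the floor of 28.3 the fold was 3.08 in place of 6.72 at day 4 and 4.83 in place of 12.2 at day 12, and the floored values of day 4 had a limma adjusted p of 0.0661. The day 4 call was lost without control day 4 clone 10 replicate 1 (limma adjusted p = 0.0540), KO day 4 clone 10 replicate 1 (0.0584), KO day 4 clone 15 replicate 1 (0.0587) or KO day 4 clone 15 replicate 2 (0.0539), whereas the day 12 call was kept in all 16 such fits.

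X-linked Tex13b rose at day 12, by an amount that rests in part on 1 very low control array. Its probe set 1450555_at read 708, 619, 229.9 and 135 on the KO arrays of day 4, against 232, 139, 61.1 and 42.9 on the control arrays. Tex13b then read 771, 868, 392 and 392 on the KO arrays of day 12, against 61.5, 61.4, 2.44 and 44.3 on the control arrays. Both arrays of clone 10 read higher than both of clone 15 in each of the 4 groups, and the KO and control arrays overlapped at day 4 but not at day 12. Tex13b averaged 606 ± 250.1 in KO cells and 42.4 ± 27.8 in control cells at day 12, giving a log2 difference of 4.49 ± 0.65 (limma adjusted p = 0.00266, higher in 4 of 4 pairs). At day 4 the log2 fold change was 1.84 ± 0.65 (limma adjusted p = 0.371), again with 4 of 4 pairs higher. One control array of day 12, clone 15 replicate 1, read only 2.44: without it the log2 fold change at day 12 was 3.59, close to the 3.60 of Tex101 on all arrays, the limma adjusted p at day 4 was 0.0148, and without control day 12 clone 15 replicate 2 the day 12 change was 5.11. With lower values set to 28.3 the fold at day 12 was 12.1 in place of 22.4, and the day 4 difference then passed (limma adjusted p = 0.00565). The second probe set of the gene, 1432159_a_at, averaged 191 ± 78.9 in KO cells and 13.1 ± 11.7 in control cells at day 12, giving a log2 difference of 4.22 ± 0.72 (limma adjusted p = 0.0136 over every probe set). That control mean is also under 28.3, and no floored value is given for this probe set.

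The paralogues Tex19.1 and Tex19.2, between which the annotation lists 0 genes on chromosome 11, were both higher in KO cells at day 12, from very different positions on the array. Tex19.1 (1417482_at) was already high in untreated ES cells. It read 5541, 3116, 5618 and 3492 on the KO arrays of day 4, against 3011, 1642, 2604 and 1693 on the control arrays. Tex19.1 then read 3941, 4629.6, 3447 and 4661 on the KO arrays of day 12, against 2114, 1848, 2077 and 2034 on the control arrays. Every KO array was above every control array on both days, and at day 4 replicate 1 was higher than replicate 2 in both clones, in KO and control alike. The log2 fold change was 1.04 ± 0.24 at day 12 (limma adjusted p = 0.0369, higher in 4 of 4 pairs). At day 4 it was 0.99 ± 0.24, with a limma adjusted p of 0.119 that became 0.0142 with the pairs as a block (4 of 4 pairs higher). The day 12 call was lost whichever of the 8 arrays of day 12 was left out, at limma adjusted p from 0.0592 to 0.105 and log2 fold changes from 0.97 to 1.13.

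Tex19.2 (1460274_at) read 195, 129, 249.8 and 181 on the KO arrays of day 4, against 101, 129, 108 and 78.2 on the control arrays. Tex19.2 then read 404, 340.2, 262 and 297 on the KO arrays of day 12, against 88.1, 123, 262 and 98.1 on the control arrays. The arrays did not overlap at day 4, where the nearest pair was almost equal, and overlapped at day 12 because 1 control array of clone 15 was as high as the KO array beside it. The log2 fold change was 0.84 ± 0.32 at day 4 (limma adjusted p = 0.422) and 1.31 ± 0.32 at day 12 (limma adjusted p = 0.0458, higher in 3 of 4 pairs). With the pairs as a block the adjusted p at day 12 was 0.0711, and leaving out any 1 array lost the call at limma adjusted p from 0.0505 to 0.146, except without control day 12 clone 15 replicate 1 or KO day 4 clone 10 replicate 2. The deposited table does not say how far the probes of these similar paralogues tell them apart, and cross-hybridisation was not tested.

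Members already expressed in ES cells were taken as those above the median of all probe sets on all 8 untreated arrays. There were 9 of them, against 9577 of all 18195 entries: Tex10, Tex30, Tex19.1, Tex14, Tex261, Tex9, Tex2, Tex15 and Tex264. A further 5 members (Tex101, Tex33, Tex22, Tex16 and Tex24) were under the 25th percentile on all 8, against 815 of all entries, and 21 lay between. Tex19.1 alone of the 9 passed the threshold, at day 12, while 5 of the 26 other members did. On that day 2.19% of all entries were higher and 0.901% lower. The classes were not compared by a test, and the class of a member can depend on its probes as well as on its RNA. The errors were smaller for the 9, with a median standard error of 0.18 at day 4 against 0.56 over all members and 0.28 over all entries.

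**Figure D2:**
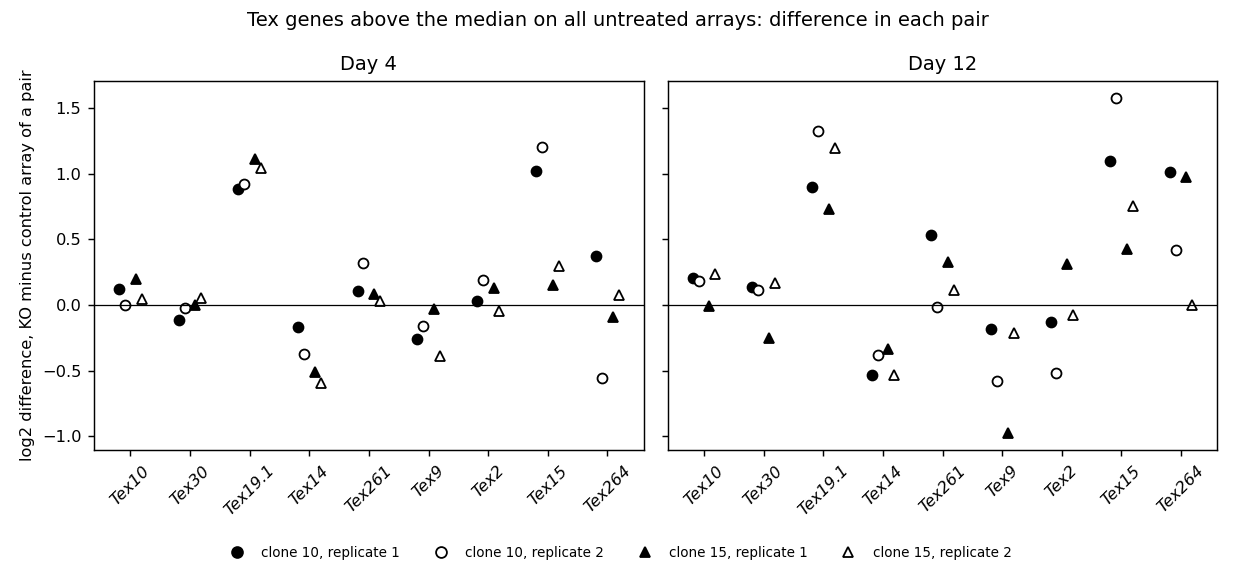
Log2 difference between the KO and the control array of each of the 4 pairs at day 4 (left) and day 12 (right) for the 9 members above the median on all untreated arrays. Tex19.1 and Tex15 are above 0 in 4 of 4 pairs on both days and Tex14 and Tex9 below 0 in 4 of 4 pairs on both days, whereas Tex30 lies close to 0.

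Among germ cell genes of this group, Tex14 and Tex15 leaned in opposite directions. Tex14 (1419240_at) read 717, 436, 664 and 498 on the KO arrays of day 4, against 808, 564, 948 and 752 on the control arrays. Tex14 then read 607, 587, 765 and 639 on the KO arrays of day 12, against 878, 765, 966 and 923 on the control arrays. KO was the lower array in 4 of 4 pairs on both days, and the groups did not overlap at day 12. The log2 fold change was -0.41 ± 0.18 at day 4 (limma adjusted p = 0.518) and -0.45 ± 0.18 at day 12 (limma adjusted p = 0.242, and 0.0286 with the pairs as a block).

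Tex15 (1420719_at) read 495, 332, 1776 and 1535 on the KO arrays of day 4, against 244, 144, 1595 and 1248 on the control arrays. Tex15 then read 542, 472, 1798 and 1744 on the KO arrays of day 12, against 254, 158, 1339 and 1033 on the control arrays. The clones stood far apart, clone 15 being above clone 10 in every group, so that KO and control overlapped although KO was higher in 4 of 4 pairs on both days. The log2 fold change was 0.67 ± 0.26 at day 4 (limma adjusted p = 0.455) and 0.96 ± 0.26 at day 12 (limma adjusted p = 0.0791). The day 12 difference passed with the replicate number within each day as a term (limma adjusted p = 0.0198), with trend and robust moderation (0.0319), among genes with a mean above the median only (0.0326) and without control day 4 clone 10 replicate 2 (0.0382). With the pairs as a block its adjusted p was 0.0535. At day 12 it was 1.34 in clone 10 and 0.59 in clone 15.

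The members of wider use did not pass the threshold. Tex10 (1439464_s_at) read 11736, 12753, 10712 and 12590.2 on the KO arrays of day 4, against 10757, 12753, 9329 and 12193 on the control arrays. Tex10 then read 9324, 8169, 9194 and 9061 on the KO arrays of day 12, against 8074, 7187, 9216 and 7674 on the control arrays. Its KO and control arrays overlapped on both days, with log2 fold changes of 0.09 ± 0.13 (95% interval -0.18 to 0.37) and 0.16 ± 0.13 (-0.12 to 0.43). Tex30 (1428593_at) read 2356, 2701, 2584 and 2979 on the KO arrays of day 4, against 2550.5, 2745, 2585 and 2868 on the control arrays. Tex30 then read 2917, 2503, 2525 and 2731 on the KO arrays of day 12, against 2655, 2317, 3005 and 2426 on the control arrays. It had the narrowest errors of the 35, with log2 fold changes of -0.02 ± 0.11 (-0.27 to 0.22) and 0.04 ± 0.11 (-0.20 to 0.29). Its single pairs differed by -0.115 to 0.055 at day 4 and by -0.251 to 0.171 at day 12.

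Tex261 (1450965_at), a protein of export from the endoplasmic reticulum, read 619, 891, 695 and 1005 on the KO arrays of day 4, against 575, 715, 656 and 984 on the control arrays. Tex261 then read 1096, 1145, 1068 and 1227 on the KO arrays of day 12, against 757, 1158, 853 and 1133 on the control arrays. The groups overlapped on both days, with log2 fold changes of 0.13 ± 0.20 and 0.24 ± 0.20 (limma adjusted p = 0.976 and 0.653). Of the other probe sets of Tex261, 1423384_s_at changed by -0.23 ± 0.21 at day 4 and 0.03 ± 0.21 at day 12. The third, 1452768_at, changed by 0.20 ± 0.24 and 0.14 ± 0.24 (limma adjusted p at least 0.9075 for both, over every probe set). Tex2 (1452213_at) read 684, 581, 761 and 592 on the KO arrays of day 4, against 669.6, 509, 697 and 611 on the control arrays. Tex2 then read 687, 732, 791 and 750.1 on the KO arrays of day 12, against 751, 1049, 635 and 792 on the control arrays. Its groups overlapped too, with log2 fold changes of 0.08 ± 0.16 and -0.10 ± 0.16 (limma adjusted p = 0.993 and 0.843). The second probe set of Tex2, 1443953_at, changed by -0.04 ± 0.30 at day 4 and -0.65 ± 0.30 at day 12 (limma adjusted p = 0.999 and 0.456 over every probe set).

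Tex264 (1425068_a_at), the autophagy receptor gene, read 418, 213, 412 and 359 on the KO arrays of day 4, against 322, 312, 438 and 340.1 on the control arrays. Tex264 then read 654, 801, 758 and 649.8 on the KO arrays of day 12, against 324, 598, 386 and 650.5 on the control arrays. At day 12 the lowest KO array and the highest control array were nearly equal, and the log2 fold change was 0.60 ± 0.25 (limma adjusted p = 0.266), against -0.05 ± 0.25 at day 4 (limma adjusted p = 0.997). Tex9 (1453360_a_at) read 699, 962, 718 and 859 on the KO arrays of day 4, against 835, 1072, 732 and 1125 on the control arrays. Tex9 then read 600.2, 447, 445 and 609 on the KO arrays of day 12, against 681, 669, 876 and 706 on the control arrays. KO was lower in 4 of 4 pairs on both days and the groups did not overlap at day 12, where the log2 fold change was -0.49 ± 0.18 (limma adjusted p = 0.214), against -0.21 ± 0.18 at day 4 (limma adjusted p = 0.898). The other probe sets of Tex9 differed in sign at day 12. There 1421356_at changed by -0.62 ± 0.53, 1431816_at by 0.50 ± 0.83 and 1444769_at by 0.31 ± 0.37 (limma adjusted p at least 0.762 over every probe set).

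**Figure D3:**
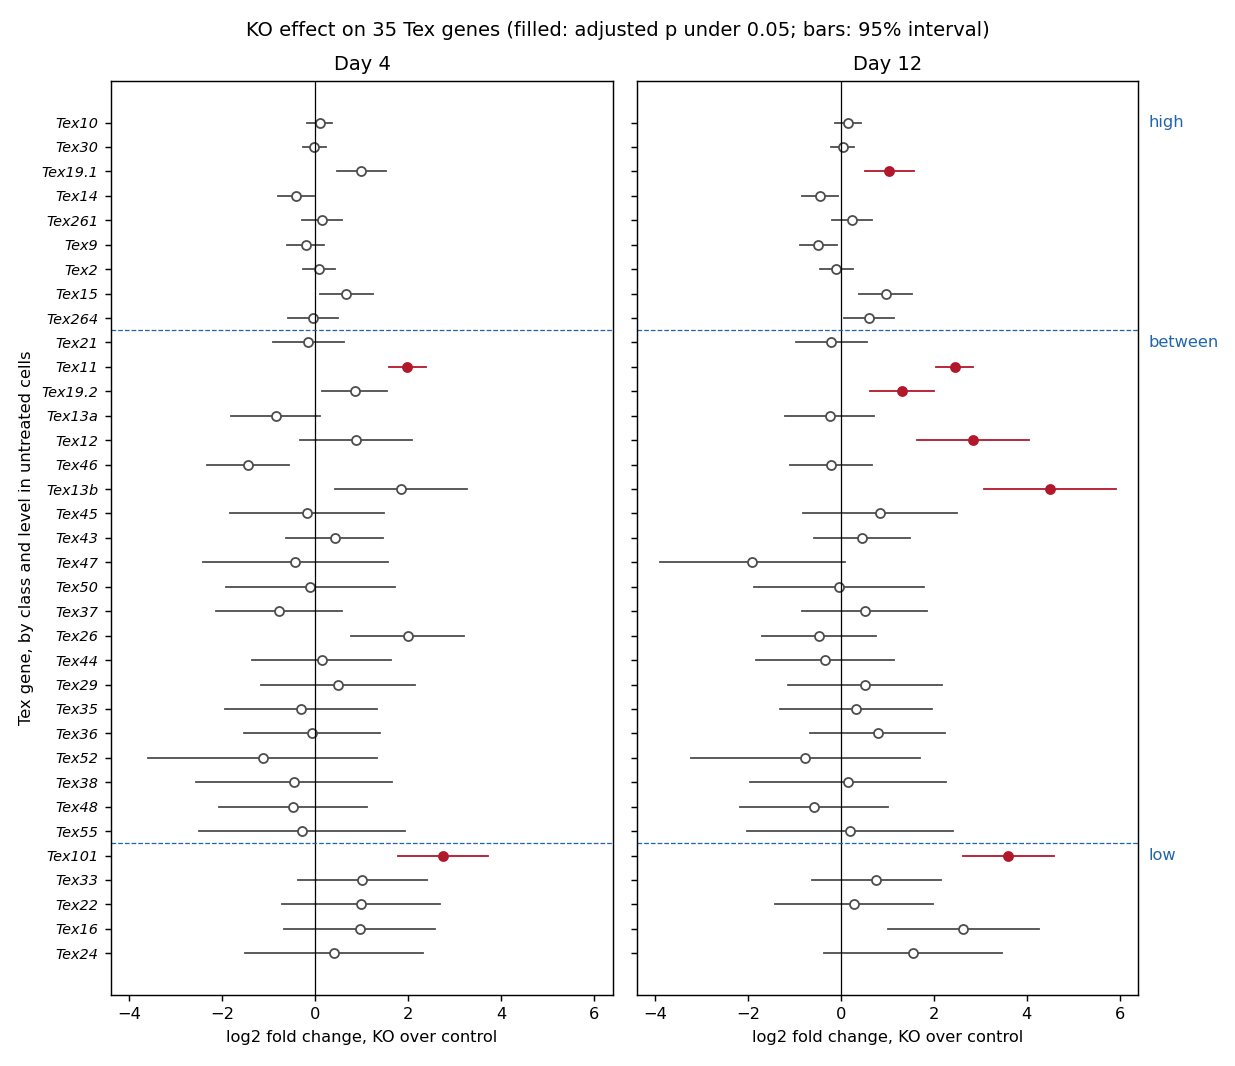
Log2 fold change, KO over control, of all 35 members at day 4 (left) and day 12 (right), with 95% intervals. Members run down the page by class and median level in untreated cells, and filled red points have a limma adjusted p under 0.05, 2 at day 4 and 6 at day 12. The intervals of dim members are several times as wide as those of Tex10 or Tex30.

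The 21 members that were neither high in untreated cells nor past the threshold were mostly dim: all but Tex13a and Tex21 averaged under the array median in untreated cells. Before any floor, the log2 fold changes farthest from 0 at day 4 were those of Tex26 (1.98 ± 0.56, limma adjusted p = 0.197), Tex46 (-1.45 ± 0.40, limma adjusted p = 0.187) and Tex52 (-1.13 ± 1.14, limma adjusted p = 0.925). Tex26 (1430620_at) read 54.8, 39.3, 65.3 and 13.8 on the KO arrays of day 4, against 12.3, 7.40, 9.14 and 9.59 on the control arrays. Tex26 then read 90.9, 38.7, 48.8 and 10.5 on the KO arrays of day 12, against 50.5, 48.5, 68.8 and 39.4 on the control arrays. Its KO arrays were above its controls at day 4 only, and the controls themselves were higher at day 12 than at day 4 without overlap. Tex46 (1421367_at) read 21.8, 7.91, 40.2 and 22.1 on the KO arrays of day 4, against 32.9, 31.1, 132 and 63.2 on the control arrays. Tex46 then read 42.8, 63.1, 55.2 and 69.7 on the KO arrays of day 12, against 79.3, 34.5, 71.3 and 95.3 on the control arrays. KO was lower in 4 of 4 pairs at day 4, with overlap between the groups, and in 3 of 4 at day 12. Tex52 (1430935_at) read 8.22, 2.57, 2.77 and 20.8 on the KO arrays of day 4, against 26.7, 2.71, 55.6 and 7.03 on the control arrays, with overlap. Much of this lay under the 25th percentile: with lower values set to 28.3 the log2 fold changes at day 4 were 0.66 for Tex26, -0.81 for Tex46 and -0.24 for Tex52. That of Tex13a, -0.83, was then the farthest from 0.

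At day 12 the log2 fold changes farthest from 0 before any floor were those of Tex16, Tex47 and Tex24, and none passed. With lower values set to 28.3 they were 0.05, -0.33 and 0.05, and that of Tex45, 0.44, was then the farthest from 0. X-linked Tex16 (1421700_at) read 32.5, 18.8, 27.1 and 27.4 in KO cells at day 12, against 1.48, 11.6, 7.41 and 2.44 in control cells. The groups did not overlap, but 3 of the 4 KO arrays were still under the 25th percentile, and the log2 fold change of 2.63 ± 0.75 (limma adjusted p = 0.0892) corresponds to a fold of 6.18, against 1.03 with the floor. Tex16 passed with the replicate number within each day as a term (limma adjusted p = 0.0302) and with an offset of 16 added to the intensities (0.0378). Tex47 (1430467_at) read 3.92, 41.7, 45.8 and 2.52 in KO cells at day 12, against 79.1, 40.0, 36.0 and 33.1 in control cells, with a log2 difference of -1.91 ± 0.92 (limma adjusted p = 0.360). Of its KO arrays, 2 lay inside the range of the controls and 2 far below it. Tex24 (1441893_at) read 13.6, 7.02, 32.4 and 19.0 in KO cells at day 12, against 1.17, 3.72, 20.1 and 9.26 in control cells, with a log2 difference of 1.55 ± 0.88 (limma adjusted p = 0.464) and 3 of the 4 KO arrays inside the range of the controls.

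The other members of this group were Tex13a, Tex21, Tex22, Tex29, Tex33, Tex35, Tex36, Tex37, Tex38, Tex43, Tex44, Tex45, Tex48, Tex50 and Tex55. Their log2 fold changes ran from -0.85 to 1.01 at day 4 and from -0.58 to 0.84 at day 12, with standard errors from 0.35 to 1.02 and limma adjusted p of at least 0.658. Tex38, which in mouse spermatids partners the palmitoyltransferase Zdhhc19, is an example of the width of these intervals, with a 95% interval of -1.95 to 2.26 at day 12. Tex21 and Tex13a were above the median on 6 and 5 of the 8 untreated arrays, and the other 13 on at most 1.

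**Figure D4:**
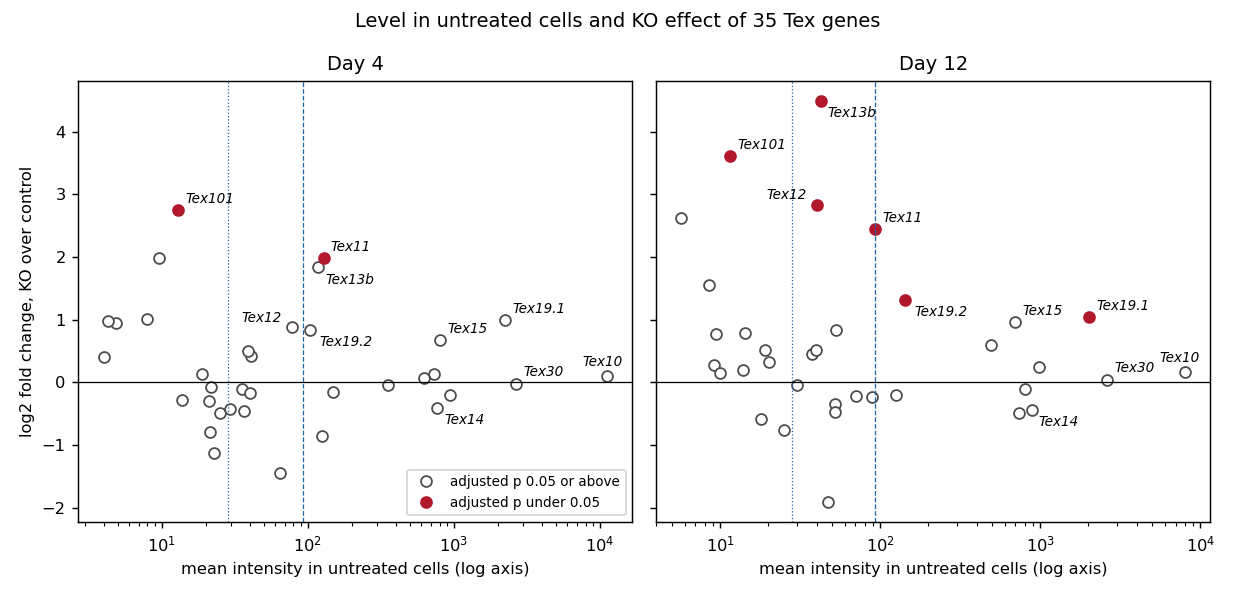
Log2 fold change, KO over control, of the 35 members against their mean intensity in untreated cells of the same day (log axis), at day 4 (left) and day 12 (right). The dashed and dotted lines mark the median (93.3) and 25th percentile (28.3) of all probe sets, and filled red points have a limma adjusted p under 0.05. Both axes use the control arrays, so they are not independent measures.

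In counts, of the 9 high members 0 passed at day 4 and 1 at day 12, of the 21 in between 1 and 4, and of the 5 low ones 1 (Tex101) on both days. The shares of all entries were 0.566% higher and 0.0605% lower at day 4, and 2.19% and 0.901% at day 12. Shares by class over all entries are not given here. Groups of 4 against 4 arrays without overlap were found for 5 members higher and 0 lower at day 4, beside 3.49% and 2.01% of all entries. At day 12 they were found for 6 higher and 2 lower (Tex14 and Tex9), beside 7.41% and 4.67%. With the mean of the 8 untreated arrays, in place of every array, as the mark, Tex11, Tex13a, Tex21 and Tex19.2 joined the high class, making 13.

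Whether the KO effect differed between the days was tested directly. No member passed (limma, 0 of 18195 entries), and 3 members had an unadjusted p under 0.05, as did 4.57% of entries. These were Tex12, whose effect at day 12 less that at day 4 was 1.95 ± 0.79 on the log2 scale, Tex13b with 2.65 ± 0.93 and Tex26 with -2.45 ± 0.80, all at a limma adjusted p of at least 0.998. In untreated cells the day 12 level less that of day 4 was -1.69 for Tex12, -1.92 for Tex13b, -0.47 for Tex11 and 2.43 for Tex26 on the log2 scale, with limma adjusted p of 0.184, 0.203, 0.279 and 0.0640. No member passed that comparison with limma (6 had an unadjusted p under 0.05, beside 13.9% of entries), where 0.654% of entries were higher and 0.341% lower at day 12, and Tex10 came nearest among the members expressed in ES cells with -0.48 ± 0.13 (limma adjusted p = 0.100). Comparisons at one day share their control arrays with these, so the same low controls of Tex12 and Tex13b at day 12 enter both. The value of Tex10 is that of 1439464_s_at. Its second probe set, 1434317_s_at, did not read lower at day 12, averaging 2857 ± 138 in control cells at day 4 and 2978 ± 185 at day 12 (SD).

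The clones differed in the untreated level of Tex15. In a comparison added after the values were seen, Tex15 in untreated cells read 1033 to 1595 in clone 15 and 144 to 254 in clone 10 (n = 4 arrays each), a log2 difference of 2.73 ± 0.23 (limma adjusted p = 0.00455). Tex12 read 55.8 to 104 in clone 15 and 7.29 to 82.2 in clone 10, a log2 difference of 1.89 ± 0.24 (limma adjusted p = 0.0255), with the gap at its widest at day 12. Some of its clone 10 arrays lay under the 25th percentile, and with lower values set to 28.3 the difference was 0.94 ± 0.23 and did not pass (limma adjusted p = 0.312). Of all entries 0.0385% were higher and 0.0275% lower in clone 15. In the test of the KO effect between the clones no member passed at day 4 or day 12 (limma, 0 of 18195 entries on either day, with 1 and 2 members at an unadjusted p under 0.05, beside 3.13% and 2.90% of entries).

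Some germ cell genes outside the Tex series also rose. Of 42 measured genes of a list of 48 known for germ cell or meiotic roles, 10 rose and 0 fell at day 4 (median log2 fold change 0.93), beside 0.566% and 0.0605% of all entries. At day 12, 18 rose and 0 fell (median 0.98), beside 2.19% and 0.901%. The list was drawn up with earlier results of these data known, and most of its genes did not pass on either day. Among meiotic genes, Sycp1 and Syce1 of the synaptonemal complex rose by 2.41 ± 0.25 and 2.06 ± 0.14 on the log2 scale at day 4 and by 2.64 ± 0.25 and 2.29 ± 0.14 at day 12 (limma adjusted p from 2.58e-06 to 3.39e-04, 4 of 4 pairs each). Of other genes of that complex, Sycp3 (-0.12 ± 0.25), Syce2 (-0.20 ± 0.09) and Syce3 (1.11 ± 0.33) were not called at day 12, though the block called Syce3 (limma adjusted p = 0.00226). The meiotic genes Meiob and Msh4 read lower in 4 of 4 pairs at day 12 and did not pass. Meiob averaged 12.3 ± 16.0 in KO cells and 58.3 ± 13.4 in control cells (limma adjusted p = 0.0561). Msh4 averaged 7.72 ± 6.45 in KO cells and 28.4 ± 13.3 in control cells (limma adjusted p = 0.234). With lower values set to 28.3 their log2 fold changes were -0.93 and -0.22. Stra8, which starts meiosis, rose by 2.72 ± 0.22 at day 12 (limma adjusted p = 2.65e-05) and read 0.93 ± 0.22 at day 4 (limma adjusted p = 0.116). Dazl, an RNA-binding gene of germ cells, the piRNA pathway gene Mael and the germ cell transcription factor gene Sohlh2 rose by 2.91 ± 0.19, 2.54 ± 0.14 and 2.28 ± 0.14 at day 12 (limma adjusted p at most 5.54e-06), and Slc25a31, the testis form of the mitochondrial ADP/ATP carrier, by 3.12 ± 0.31 (limma adjusted p = 1.14e-04). At day 4 these 4 had risen as well, and so had Ddx4, Piwil2, Piwil4 and Tdrkh, while the rest of the 18 at day 12 were Ddx4, Piwil2, Tdrkh, Asz1, Mov10l1, Sycp2, Hormad2, Brdt, Taf7l, Stk31 and Mei1. With the pairs as a block 12 genes of the list were higher at day 4, and 18 were higher and 1 lower (the cohesin gene Stag3) at day 12, while Piwil4 at day 4 (limma adjusted p = 0.0698) and Brdt at day 12 (limma adjusted p = 0.0759) did not pass. The log2 fold change of Tex11 at day 12 lay between those of Syce1 and Sycp1, and that of Tex19.1 was below all of the 18 but Mei1.

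Of 11 measured PRC1.6 subunits other than Rybp, 0 passed at day 4 (limma, with E2f6 at 0.45 ± 0.17, adjusted p = 0.399) and 1 at day 12, E2f6, which rose by 0.69 ± 0.17 (limma adjusted p = 0.0446). With the pairs as a block E2f6 passed at day 4 as well (limma adjusted p = 0.0486) and Mga was lower at day 12 (-0.38 ± 0.09, limma adjusted p = 0.0425). Of all entries 0.566% were higher and 0.0605% lower at day 4, and 2.19% and 0.901% at day 12. With the pairs as a block these shares were 0.736% and 0.242% at day 4, and 4.68% and 3.45% at day 12. At such shares a count of 0 or 1 in a short list does not show that its genes were unchanged. Markers of other cells were read beside the Tex genes, and the same shares apply to them. None of 8 spermatid markers passed (limma), their summed intensity being 201 to 345 in KO and 235 to 398 in control cells at day 4 and 208 to 464 against 311 to 373 at day 12, and none of the 8 was above the median on all arrays of any group. None of 5 Leydig cell markers or 9 fibroblast feeder markers passed (limma), the feeder sum being 2204 to 3921 in KO and 2362 to 3225 in control cells at day 4 and 4084 to 5129 against 3768 to 4512 at day 12, though with the pairs as a block the fibroblast surface gene Thy1 was higher on both days (limma adjusted p = 0.0326 and 0.0391). Of 6 Sertoli cell markers 1 rose at day 12, the X-linked homeobox gene Rhox5 (2.00-fold, limma adjusted p = 3.78e-04), which averaged 21381 ± 1884 in KO cells and 10652 ± 735 in control cells, and with the pairs as a block Rhox5 also passed at day 4 and Aard on both days (limma adjusted p from 0.00708 to 0.0488 for Aard). Of the 6 ES cell markers 1 fell at day 12, the chromatin factor gene Utf1 (-0.82 ± 0.18, limma adjusted p = 0.0256), and Sox2 was lower in the fit with the block (-0.30 ± 0.11, limma adjusted p = 0.0417). The part of Thy1, Rhox5 and Utf1 in the results for the Tex genes was not tested. As a mark of RNA integrity, the transferrin receptor control was read too, as signal near the 3′ end over signal near the 5′ end: at day 4 all 4 pairs were higher in KO, by 0.20 ± 0.14 on the log2 scale (SD), and at day 12 only 1 of 4 was (-0.02 ± 0.10). The actin, Gapdh and pyruvate carboxylase controls differed by 0.03 ± 0.03, 0.01 ± 0.05 and -0.03 ± 0.45 at day 4, higher in KO in 3, 2 and 2 of 4 pairs. At day 12 they differed by 0.07 ± 0.10, -0.02 ± 0.05 and 0.18 ± 0.41. The part of RNA integrity in the day 4 values was not tested.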

How the data were processed

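The authors deposited 1 intensity per probe set and array on a linear scale, spanning 0.144 to 52570. Affymetrix Expression Console and RMA are named as tools in the submitters' processing notes, without versions or settings, and the sorted values are the same on all 16 arrays, so they had been quantile-normalized together. A 430A 2.0 array is named in the design text, but the table has 45101 probe sets. Of these 34945 carried 1 gene symbol in the platform annotation, 932 several, 9160 none and 64 were AFFX controls. All 35 members matched the mouse annotation by Entrez identifier, and 8 had more than 1 probe set.

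Intensities were log2-transformed with no offset, although the design had assumed log values. Limma 3.58.1 (statmod 1.5.0, R 4.3.3) was fitted to all 16 arrays with 4 groups and clone as terms, with empirical Bayes moderation and Benjamini-Hochberg adjustment over 18193 genes and 2 entries for Rybp. The test of the KO effect between clones used a mean for each clone and group. The replicate numbers were taken to pair KO and control arrays of a clone and day: over 10850 genes the deviations from clone and group means correlated at 0.58 to 0.68 in the 4 pairs of day 4 and at 0.29 to 0.46 in those of day 12. Replicates of a clone gave unequal values (0.68 and 0.60 in clone 10 at day 4), so the means were not of each clone within each group. Differences between the clones can therefore enter these correlations. Tested on simulated data, the fit recovered 44% of genes changed by 1 on the log2 scale and 70% of those changed by 2 at day 4, and 38% and 67% at day 12, of 100 each among 18195. It also called 9 unchanged genes at day 4 and 6 at day 12. The simulated noise was independent between arrays, unlike the pairs of these data, so the shares need not hold for these arrays. The number of arrays limits the precision. Members given on every array were those past the threshold and those high in untreated cells. The 3 others with the largest change at each day were given on the arrays of that day, and Tex26 and Tex46 on those of both days. The members, the gene lists and the motifs were chosen with earlier results of these data known. Alternatives tried were the replicate block, other covariates and sample sets, an offset of 16, a floor, a filter on dim genes, other choices of probe set, and trend with robust moderation.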

Additional observations from a re-analysis of the deposited data

Results flagged for a closer look

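Of 80 groups of 4 arrays examined for 20 members, 3 held 1 array far from the other 3, and chance gives about 1 in 20. Tex12 read 203 on KO day 12 clone 10 replicate 1, where the other KO arrays of that day read 149.6 to 157. Tex13b read 2.44 on control day 12 clone 15 replicate 1, where the other controls read 44.3 to 61.5. Tex16 read 8.82 on control day 4 clone 10 replicate 2, where the other controls read 3.32 to 3.89, all of them far below the 25th percentile of intensity.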

How the results depend on the processing

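No effect of a described member that had passed changed sign under any alternative. The 2 members higher at day 4 became 1 with only the 8 arrays of the day and 0 within clone 10, clone 15, replicate number 1 or replicate number 2 alone, and 1 to 3 when 1 array was left out. Of all 18195 entries the main fit called 103 higher and 11 lower at day 4. Those called in either direction were 36 with only the 8 arrays, 5 within clone 10 and 66 to 111 without 1 array. The 6 higher at day 12 became 3 with only the arrays of the day, 3 within clone 10 (Tex11, Tex12 and Tex13b), 0 within clone 15 or within either replicate number, and 3 to 6 when 1 array was left out. Of all entries the main fit called 399 higher and 164 lower at day 12. Those called in either direction were 249 with only the arrays of the day, 37 within clone 10 and 287 to 536 without 1 array. Calls thus became fewer over all entries as well. The fits within clone 15 and within a replicate number found 0 of all 18195 entries, so these fits show nothing about single members. The replicate block turned the 0 members lower at day 12 into 1 (Tex14), and the replicate number within each day as a term gave 1 at day 4 (Tex14) and 2 at day 12 (Tex14 and Tex9). Tex15 and Tex16 also passed at day 12 with that term. Beside Tex101 at day 4, Tex19.1 at day 4, Tex19.2 at day 12 and Tex14 at day 12, the block changed the call of no other member described. In untreated cells 1 member, Tex10 (1439464_s_at), was lower at day 12 with the floor (limma adjusted p = 0.0365) or with trend and robust moderation (0.0251). The mean of its second probe set, 1434317_s_at, was not lower at day 12 (2857 ± 138 at day 4 and 2978 ± 185 at day 12, SD). Over the described members 1099 recomputed effects stayed on their side of the threshold, 68 lost it and 17 gained it, and the cause was not tested. Standard errors of dim members, up to 1.14 on the log2 scale at day 4, limit what could be seen for them.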
